A study of Homo sapiens with 6 samples.

Results

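The genes described here are 42 of the 62700 rows of a gene count table from A673 cells: 12 annexins, 21 S100 genes and 9 copines, each taken by its symbol (ANXA, S100 or CPNE followed by the member's own letters and digits) and counted once. A673 is an established Ewing sarcoma line. Tumours of this kind are driven by EWS-FLI1, in which the start of EWSR1 is joined to the DNA-binding end of FLI1, an ETS factor. RNA was sequenced from 3 libraries labelled EWS-FLI1 knockout and from 3 libraries of parental control A673 cells labelled EWS-FLI1 wildtype, both grown in DMEM with fetal bovine serum. The series was set up to ask what loss of the fusion does across the genome and to alternative splicing. The labels do not say how the knockout was made, whether it is 1 clone or a pool, or whether replicates were separate cultures, so the p-values rest on a spread between libraries that may be technical, and a difference between clones and an effect of losing the fusion cannot be told apart.

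Annexins are calcium-dependent proteins that dock on the inner face of membranes through negatively charged phospholipids, where they organise membrane domains, secretion and the resealing of torn plasma membrane. S100 proteins are small calcium sensors of the EF-hand type that work as dimers. Several bind the N-terminal tail of an annexin, the best known pair being S100A10 with annexin A2, and some are also released and act on receptors outside the cell. Copines carry tandem C2 domains, which bind phospholipids when calcium rises, followed by a domain related to that of integrins, and they bring partner proteins to membranes. Mesenchymal cells such as fibroblasts and smooth muscle commonly hold much annexin A2, S100A6 and S100A10, while S100A7, S100A8, S100A9 and S100A12 are typical of inflamed epidermis and myeloid cells.

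The stretches that RefSeq (GRCh38.p14) places before the transcription start of 5 members are shown because these members carry the largest rises and the largest fall described here, and because annexin A2 and S100A10 form 1 complex. Each is the 250 bases before an annotated start, read in the direction of the gene, with matches to 3 motifs in capitals.
ANXA2, chr15:60397987-60398236, minus strand: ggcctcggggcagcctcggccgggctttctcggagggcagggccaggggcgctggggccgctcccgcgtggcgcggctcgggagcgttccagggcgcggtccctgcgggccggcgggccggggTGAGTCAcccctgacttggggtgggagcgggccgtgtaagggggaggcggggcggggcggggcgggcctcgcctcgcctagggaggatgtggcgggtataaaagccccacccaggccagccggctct
S100A10, chr1:151993860-151994109, minus strand: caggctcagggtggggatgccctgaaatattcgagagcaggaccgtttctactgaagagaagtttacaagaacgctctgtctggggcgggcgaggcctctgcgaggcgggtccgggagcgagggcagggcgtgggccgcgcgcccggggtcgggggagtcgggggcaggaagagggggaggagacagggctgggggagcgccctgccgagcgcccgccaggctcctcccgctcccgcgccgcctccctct
S100A6, chr1:153535992-153536241, minus strand: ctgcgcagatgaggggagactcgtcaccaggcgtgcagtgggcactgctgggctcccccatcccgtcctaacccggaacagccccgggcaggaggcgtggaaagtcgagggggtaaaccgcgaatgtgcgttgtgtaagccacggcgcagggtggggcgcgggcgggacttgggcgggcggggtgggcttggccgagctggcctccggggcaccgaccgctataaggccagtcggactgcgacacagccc
S100A16, chr1:153613138-153613387, minus strand, the upstream of 2 starts: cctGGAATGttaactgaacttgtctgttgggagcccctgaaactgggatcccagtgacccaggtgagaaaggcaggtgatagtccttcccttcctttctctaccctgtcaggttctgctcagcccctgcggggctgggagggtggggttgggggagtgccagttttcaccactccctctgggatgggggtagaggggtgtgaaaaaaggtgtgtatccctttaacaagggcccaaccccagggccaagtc
CPNE4, chr3:132037761-132038010, minus strand, the middle of 3 starts: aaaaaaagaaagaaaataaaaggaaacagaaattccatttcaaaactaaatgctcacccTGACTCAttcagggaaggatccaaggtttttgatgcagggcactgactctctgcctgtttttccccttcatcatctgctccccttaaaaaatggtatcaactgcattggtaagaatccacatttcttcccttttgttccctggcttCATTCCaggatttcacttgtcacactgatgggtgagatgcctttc
The motifs searched were GGAAGGAA, a tandem pair of the unit that EWS-FLI1 binds in repeats, TGANTCA, the AP-1 site, and GGAATG, the TEAD site, on both strands and in windows from 250 bases before to 50 after each start. The table held windows for 36 of the 42 members. The tandem GGAA was found in 0 of these 36 genes, against 4.50% of all 27305 genes with a window. TGANTCA stood in the windows of 6 of 36 members, or 16.7%, against 9.37% of all genes. Those 6 were ANXA2, S100A2, S100A3, S100A5, S100A12 and CPNE4, of which ANXA2 holds TGAGTCA with its first base 127 bases before the start and S100A2 holds TGACTCA 52 bases before it. GGAATG stood in 3 of 36, namely S100A5, S100A16 and CPNE4, or 8.33%, against 16.7% of all genes. A gene was counted if any of its windows held the motif. For CPNE4 only the window of the printed start held TGANTCA or GGAATG, and those of its other starts held neither. The 3 motifs overlap in none of the printed stretches, and S100A10 and S100A6 hold none of them in their windows. A match is only a run of letters, and these windows do not cover distant elements.

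Library totals lay between 301605666 and 342624492 estimated counts, and a floor of 3 counts equals 0.00752 to 0.0117 CPM. Levels below are CPM, counts scaled to a common library size with TMM factors, given per library or as mean ± SD over a genotype's 3 libraries. Fold changes are knockout over parental on the log2 scale, and SE is their standard error in the edgeR fit. Counts per gene add the fusion transcript to the normal EWSR1 and FLI1 transcripts, so the level of neither gene checks the knockout. Of 8 Ewing sarcoma markers all 8 fell, and their summed level was 30.1 to 31.8 CPM in knockout libraries against 944 to 980 CPM in parental libraries. Markers of other cells that make S100 proteins were mostly scarce. Of 8 keratinocyte markers KRT10 rose, TP63 fell and 6 were too low to test: KRT5, KRT14, KRT1, DSG1 and DSG3 were below 0.03 CPM on average in both genotypes, IVL had 0 counts in every library, and the summed level was 36.6 to 38.6 CPM in knockout and 35.4 to 37.4 CPM in parental libraries. Of 8 myeloid markers 3 rose, 3 fell, 1 did not pass and 1 was too low to test, and their summed level was 2.51 to 2.97 CPM in knockout and 0.958 to 1.04 CPM in parental libraries, and PTPRC, which encodes CD45, made up 1.49 ± 0.157 and 0.127 ± 0.0272 CPM of it. All 8 fibroblast markers rose, from a list that holds the collagens COL1A1, COL1A2 and COL3A1, and their sum was 60089 to 62313 CPM in knockout and 432 to 457 CPM in parental libraries. Raw counts of the fibroblast marker DCN averaged 94344 in knockout and 656 in parental libraries. Those of the Ewing sarcoma marker PRKCB averaged 911 and 151619 in the same order. Some markers thus kept a share about as low as that of S100A6 below, and what sets such shares was not tested. The part of the markers of all these lists in the results below was not tested.

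Of the 42 members, 33 passed the filter on low counts, 22 of these rose, 8 fell and 3 did not pass at an edgeR adjusted p under 0.05. Of all 28485 tested genes 73.8% were called at this threshold, 36.3% higher and 37.5% lower, so a call as such is common in this comparison. Knockout and parental libraries did not overlap for 31 of the 33 members, of which 23 were higher and 8 lower in knockout libraries. Of all tested genes 76.7% did not overlap, 37.1% higher and 39.5% lower. A called log2 fold change of at least 1 in size was found in 25 members, 19 higher and 6 lower, and in 42.1% of all tested genes, 21.8% higher and 20.3% lower. The 9 untested members were S100A7, S100A7A, S100A8, S100A9, S100A12, S100A15A, S100G, S100Z and CPNE6, none with more than 7 counts in a library. A further 4 members, ANXA10, ANXA13, S100A14 and S100P, averaged at least 10 counts in 1 genotype only, so that they entered the test through the genotype in which they were higher. S100B, with 10, 0 and 24.1 counts in knockout libraries, also needed its parental counts to enter. At least 1 CPM on average was reached by 22 members. In these the libraries of a genotype differed by a median coefficient of variation of 4.18% in knockout and 4.17% in parental libraries. RNA was taken from bulk cultures, so more cells with a transcript and more of it per cell cannot be told apart for any gene below.

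**Figure D1:**
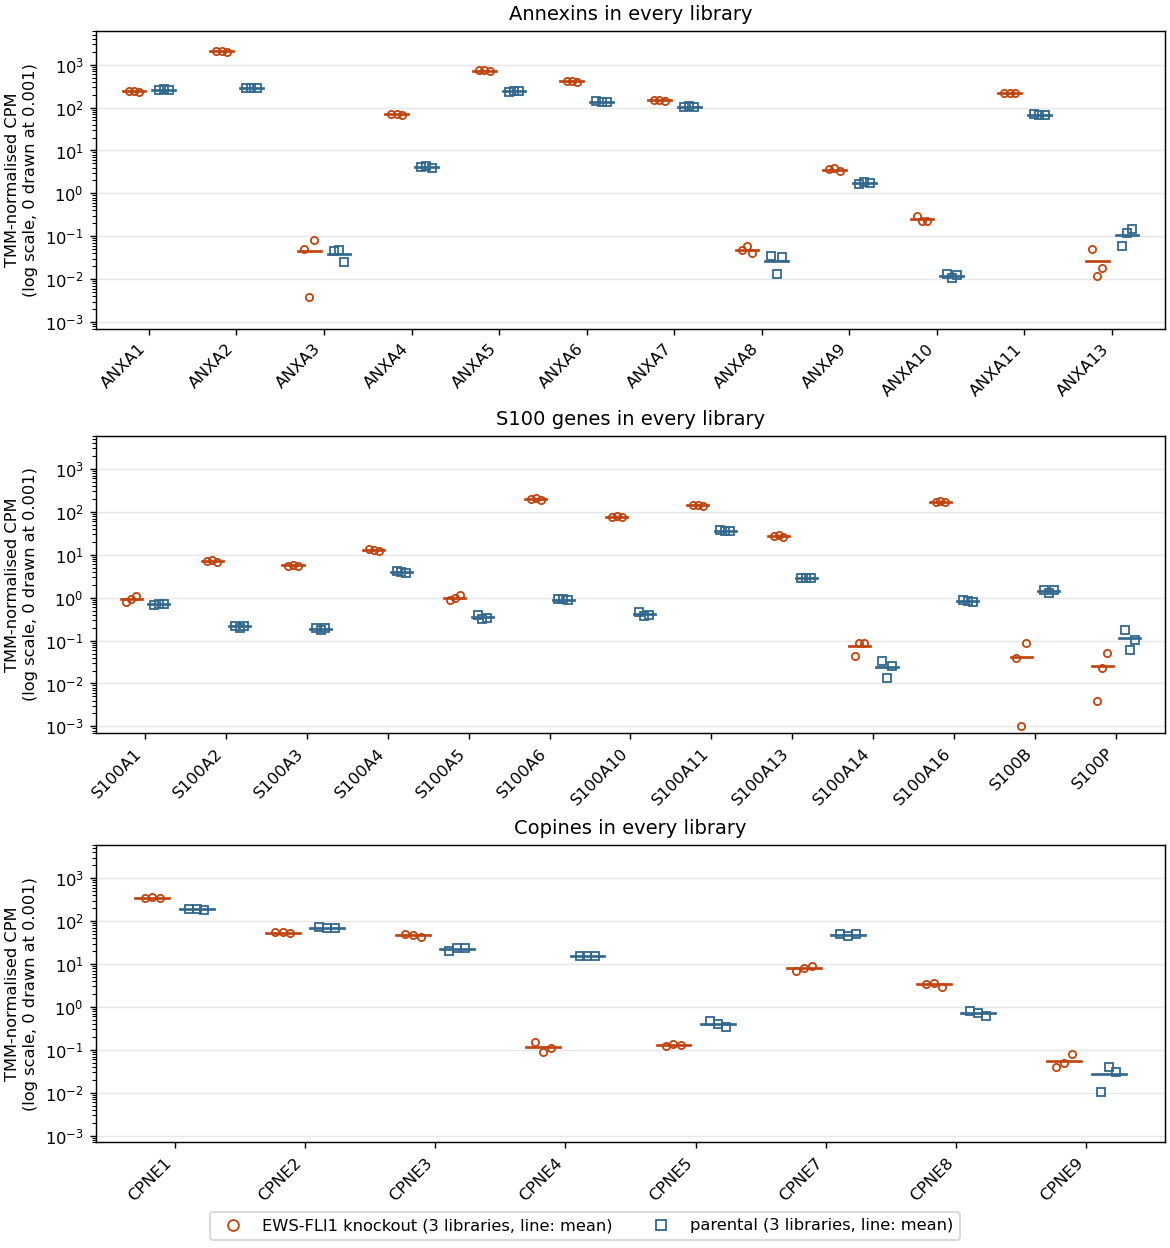
TMM-normalised CPM (log scale) of the 33 tested annexins, S100 genes and copines in 3 EWS-FLI1 knockout libraries (circles) and 3 parental libraries (squares), with a line at each mean. S100A6, S100A10 and S100A16 are the members with the widest gap upwards, with over 70 CPM in knockout and under 1 CPM in parental libraries, and CPNE4 has the widest gap downwards.

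The annexins as a family were more abundant in knockout libraries, and annexin A2 accounted for most of the difference. The summed level of the 12 genes was 3859 ± 151 CPM in knockout libraries and 1103 ± 18.98 CPM in parental libraries, or 0.333% and 0.128% of all counts. Of the 12, 8 rose, 2 fell and 2 did not pass. Their median log2 fold change was 1.32, beside -0.06 for all tested genes. Per kilobase of transcript, ANXA2 made up 60.3% ± 0.295 of the annexin level in knockout libraries and 31.6% ± 0.463 in parental libraries (SD, n = 3 each). ANXA1 made up 5.41% ± 0.0338 of it in knockout libraries and 22.1% ± 0.529 in parental libraries.

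ANXA2 (ENSG00000182718.18, chromosome 15, 60347151 to 60397986), which binds phosphatidylinositol bisphosphate and actin and, with S100A10, plasminogen and its activator at the cell surface, held 2079, 2107 and 1949 CPM in the knockout libraries against 286.4, 287.8 and 281.3 CPM in the parental libraries. All knockout libraries lay far above all parental ones, a 7.17-fold difference (log2 2.84, SE 0.051, edgeR adjusted p = 2.53e-22). The processed pseudogene ANXA2P2 had 0.367 ± 0.0161 CPM in knockout and 0.0579 ± 0.00482 CPM in parental libraries, too few reads to alter the value of its parent gene. Its own log2 fold change of 2.66 (SE 0.24) is uncertain, since its reads can be shared with ANXA2.

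ANXA4 (ENSG00000196975.16, chromosome 2, 69643808 to 69827112), an annexin of secretory epithelia that gathers on membranes when calcium enters, had the largest fold change of the abundant annexins. It held 70.0, 70.3 and 67.9 CPM in knockout libraries against 4.16, 4.29 and 3.96 CPM in parental libraries (log2 4.07, SE 0.057, edgeR adjusted p = 2.97e-24). The lowest knockout library lay far above the highest parental one. Its span overlaps that of the lncRNA SMANTIS, at a mean of 0.987 CPM, by 9450 bases.

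ANXA5, ANXA6 and ANXA11 rose by similar amounts. ANXA5 (ENSG00000164111.15, chromosome 4, 121667946 to 121696980), the phosphatidylserine binder used to stain dying cells, held 747.5, 736.2 and 694.0 CPM in knockout libraries against 233.4, 248.3 and 241.1 CPM in parental libraries. ANXA6 (ENSG00000197043.15, chromosome 5, 151100706 to 151157779), which has a duplicated annexin core and takes part in membrane repair in muscle, held 419.3, 416.0 and 384.4 CPM in knockout libraries against 139.4, 132.9 and 134.4 CPM in parental libraries. ANXA11 (ENSG00000122359.18, chromosome 10, 80150889 to 80205808), a partner of S100A6 that tethers RNA granules to lysosomes, held 220.3, 221.5 and 217.3 CPM in knockout libraries against 69.9, 66.7 and 65.5 CPM in parental libraries. Their log2 fold changes were 1.59 (SE 0.050), 1.58 (SE 0.051) and 1.71 (SE 0.048), with edgeR adjusted p-values of 8.09e-18, 1.11e-17 and 1.24e-18, and in none did the groups overlap.

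ANXA7 and ANXA9 changed less. ANXA7, first known for fusing secretory granules, held 147 ± 6.66 CPM in knockout and 104 ± 2.18 CPM in parental libraries (log2 0.49, SE 0.049, edgeR adjusted p = 7.80e-09), but 0.07 (adjusted p = 0.126) with total counts as the scale. ANXA9, an annexin with weak calcium binding, held 3.63, 3.81 and 3.32 CPM in knockout against 1.63, 1.82 and 1.75 CPM in parental libraries (log2 1.05, SE 0.098, edgeR adjusted p = 2.66e-09). An uncharacterised lncRNA overlaps the span of ANXA9 by 1548 bases, a limit without strand.

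With TMM factors ANXA1 was the 1 abundant annexin that did not rise. ANXA1 (ENSG00000135046.14, chromosome 9, 73151865 to 73170393), a glucocorticoid-induced protein that dampens inflammation through formyl peptide receptors, held 248.9, 247.8 and 229.5 CPM in knockout libraries against 255.2, 276.0 and 258.5 CPM in parental libraries. The groups lay next to each other without overlap, and the log2 fold change was -0.12 with SE 0.051, just inside the threshold (edgeR adjusted p = 0.0370). The call was lost with DESeq2 size factors (adjusted p = 0.113) and without any 1 of 4 libraries, knockout replicates 2 and 3 and parental replicates 2 and 3 (adjusted p from 0.0580 to 0.216), while total counts gave -0.55 (adjusted p = 6.76e-08).

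The other annexins were near the limit of detection. ANXA10, a marker of gastric epithelium, had 59 to 74 counts in knockout and 4 to 5 counts in parental libraries and was called higher (log2 4.32, SE 0.36). ANXA13, an annexin of intestine and kidney, was called lower, with raw estimated counts of 3.14 to 12.5 in knockout and 23.0 to 57.6 in parental libraries (log2 -2.00, SE 0.49, and -2.80 without knockout replicate 1). ANXA3 and ANXA8, with at most 22.1 counts in any library, did not pass (edgeR adjusted p = 0.776 and 0.121).

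**Figure D2:**
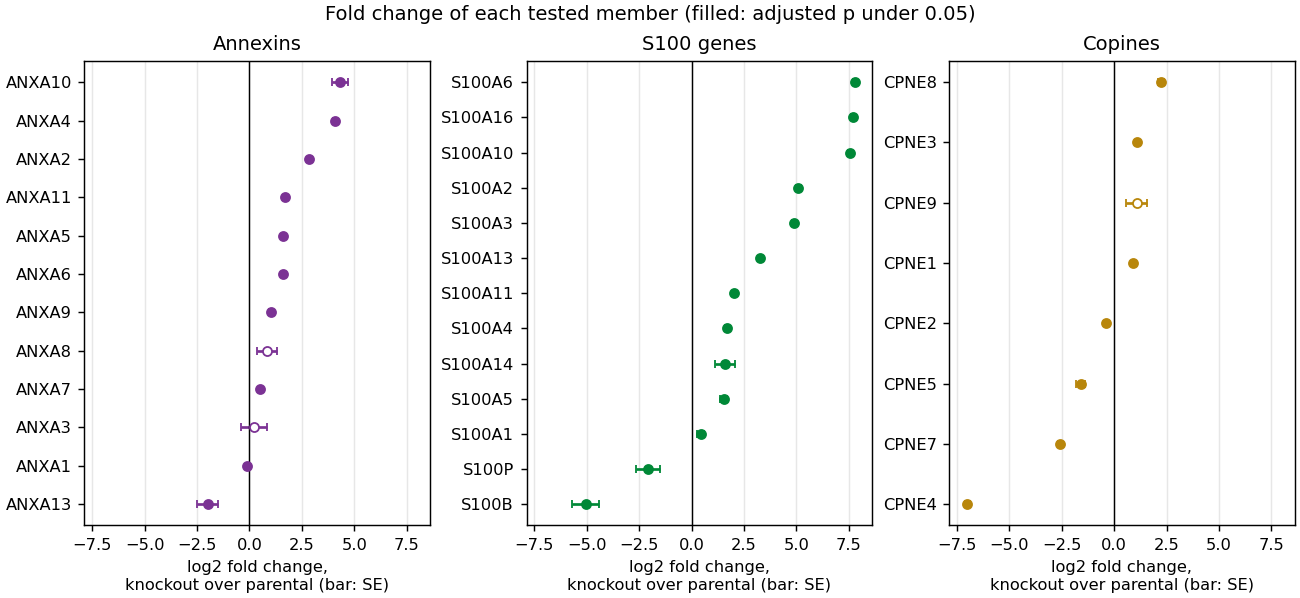
Log2 fold change, knockout over parental, of each tested member, with its SE as a bar and a filled point where the edgeR adjusted p is under 0.05. S100 genes reach 7.79 upwards and -5.05 downwards, annexins lie between -2.00 and 4.32, and copines between -7.01 and 2.23.

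The S100 genes showed the widest change of the families. Their summed level was 648 ± 20.1 CPM in knockout libraries and 47.9 ± 1.34 CPM in parental libraries, a ratio of 13.5. Of 21 genes 11 rose, 2 fell and 8 were too low to test, and 4 of these 8 had 0 counts in every library. The median log2 fold change of the 13 tested genes was 2.01. In parental libraries S100A11 alone made up 77.9% ± 0.0538 of the family's level per kilobase, and in knockout libraries 29.3% ± 0.0562, where S100A6 held 35.7% ± 0.415 and S100A16 18.0% ± 0.210 (SD, n = 3 each).

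S100A6, S100A16 and S100A10 were close to absent in parental cells and abundant in knockout cells. S100A6 (ENSG00000197956.10, chromosome 1, 153534599 to 153535991), known as calcyclin and first found in growing fibroblasts, held 204.6, 205.3 and 190.3 CPM in knockout libraries against 0.9325, 0.9077 and 0.8802 CPM in parental libraries (log2 7.79, SE 0.069, edgeR adjusted p = 5.37e-27). S100A16 (ENSG00000188643.11, chromosome 1, 153606883 to 153613137), a widely expressed member of uncertain role, held 172.4, 176.1 and 167.9 CPM in knockout libraries against 0.867, 0.839 and 0.777 CPM in parental libraries (log2 7.70, SE 0.069, edgeR adjusted p = 5.41e-27). S100A10 (ENSG00000197747.9, chromosome 1, 151982915 to 151993859), the partner of annexin A2, which cannot bind calcium itself, held 76.4, 78.1 and 74.4 CPM in knockout libraries against 0.454, 0.373 and 0.394 CPM in parental libraries (log2 7.55, SE 0.076, edgeR adjusted p = 1.50e-26). Among the members 4, these genes and S100A2, had a log2 fold change of at least 5, as had 3.82% of all tested genes.

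The parental levels of these genes were compared with the lowest shares that abundant genes kept anywhere in the table. The parental mean of raw counts was 0.664% of the knockout mean for S100A6, 0.704% for S100A16 and 0.781% for S100A10. Among the 3251 genes with a mean of at least 20000 counts in knockout libraries, the 20 that kept the least in parental libraries kept a median of 0.586%, and the lowest kept 0.530%. S100A6, S100A16 and S100A10 thus kept little more than these 20 genes did. What sets the lowest share was not tested, and the SD and SE do not cover it. RefSeq places an uncharacterised lncRNA over the whole of S100A6, which is a further limit without strand.

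**Figure D3:**
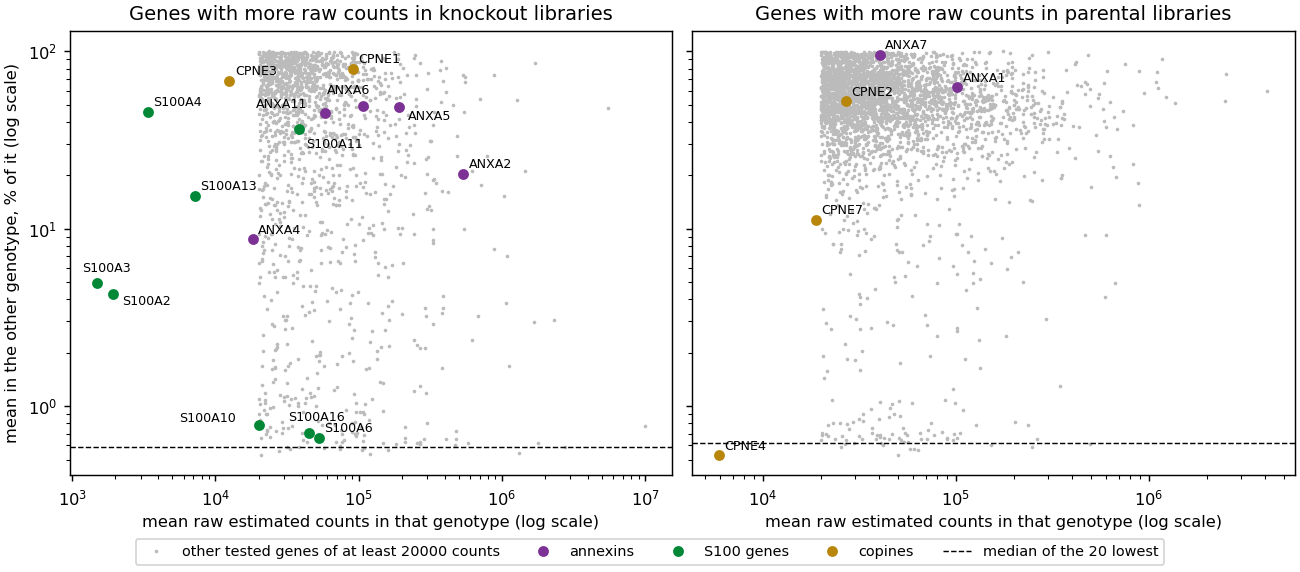
Raw count mean in the genotype where a gene is lower, as a percentage of its mean in the other genotype, against that higher mean (both log scales), for genes higher in knockout (left) and in parental libraries (right). Members of at least 1000 counts are coloured and named, other tested genes of at least 20000 counts are grey, and the dashed lines mark the medians of the 20 lowest shares, 0.586% and 0.617%. S100A6, S100A16, S100A10 and CPNE4 lie close to or below these lines, and the other named members lie well above them.

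S100A2 and S100A3 followed at lower levels. S100A2 (ENSG00000196754.13, chromosome 1, 153561108 to 153565844), a calcium sensor of epithelial nuclei that binds p53, held 7.33, 7.62 and 6.95 CPM in knockout libraries against 0.2206, 0.1985 and 0.2207 CPM in parental libraries (log2 5.09, SE 0.11, edgeR adjusted p = 4.98e-21). S100A3 (ENSG00000188015.10, chromosome 1, 153547329 to 153549258), best known from the hair cuticle, held 5.57, 5.76 and 5.62 CPM in knockout libraries against 0.197, 0.175 and 0.201 CPM in parental libraries (log2 4.89, SE 0.11, edgeR adjusted p = 3.44e-20). S100A2 was 34.2-fold and S100A3 29.6-fold higher in knockout libraries with no overlap, and parental libraries kept 4.28% and 4.95% of their raw counts. RefSeq places an uncharacterised lncRNA over all 1930 bases of the span of S100A3, so part of its reads is uncertain without strand.

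S100A13, S100A11 and S100A4 were already present in parental cells and rose further. S100A13 (ENSG00000189171.15, chromosome 1, 153618799 to 153634361), which takes part in the release of FGF1 and IL1A, held 27.1, 28.2 and 26.1 CPM in knockout libraries against 2.81, 2.85 and 2.86 CPM in parental libraries (log2 3.26, SE 0.061, edgeR adjusted p = 5.04e-22). S100A11 (ENSG00000163191.6, chromosome 1, 152032506 to 152037004), the partner of annexin A1, held 146.4, 148.3 and 139.8 CPM in knockout libraries against 37.0, 35.4 and 35.2 CPM in parental libraries (log2 2.01, SE 0.050, edgeR adjusted p = 9.37e-20). S100A4 (ENSG00000196154.12, chromosome 1, 153543621 to 153545806), which disassembles filaments of non-muscle myosin IIA and is used as a fibroblast marker, held 13.43, 12.96 and 12.25 CPM in knockout libraries against 4.195, 4.041 and 3.827 CPM in parental libraries (log2 1.68, SE 0.066, edgeR adjusted p = 5.82e-16). In each the 3 knockout libraries lay above the 3 parental ones.

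Among scarce S100 genes, S100A5 and S100A14 were called higher and S100A1 was a weak call. S100A5 held 0.996 ± 0.144 CPM in knockout and 0.346 ± 0.0398 CPM in parental libraries (log2 1.53, SE 0.16), and it overlaps S100A4 by 65 bases. S100A14, an epithelial member, had 11 to 24 counts in knockout and 5 to 13 counts in parental libraries (log2 1.58, SE 0.47). S100A1, the S100 protein of heart muscle, held 0.936 ± 0.152 CPM in knockout and 0.695 ± 0.0280 CPM in parental libraries (log2 0.43, SE 0.15, edgeR adjusted p = 0.0130). It lies whole within the span of S100A13 over 3606 bases, and the labels do not state strand, so its reads and those of S100A13 may not be told apart. The call of S100A1 was lost with total counts (0.01, adjusted p = 0.950), with upper quartile factors (0.23, adjusted p = 0.176) and without knockout replicate 3 (0.32, adjusted p = 0.0669).

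S100B and S100P went the other way. S100B (ENSG00000160307.10, chromosome 21, 46598604 to 46605082), the marker of glia, Schwann cells and melanocytes, held 0.0391, 0 and 0.0871 CPM in knockout libraries against 1.53, 1.29 and 1.48 CPM in parental libraries (log2 -5.05, SE 0.63, edgeR adjusted p = 0.00112). Its knockout values rest on 10, 0 and 24.1 counts, and its log2 fold change was -6.16 without knockout replicate 3. Among 6 markers of Schwann cells and melanocytes ERBB3 rose, SOX10 and PMEL fell, MITF did not pass, and TYR and DCT were too low to test. SOX10, the defining factor of these lineages, held 0.0191 ± 0.0106 CPM in knockout and 0.0740 ± 0.0175 CPM in parental libraries. PMEL, a melanosome protein, held 0.271 ± 0.0925 CPM in knockout and 0.898 ± 0.05165 CPM in parental libraries. ERBB3, which rose, held 0.955 ± 0.0608 CPM in knockout and 0.747 ± 0.128 CPM in parental libraries (log2 0.35, SE 0.15). MITF held 0.369 ± 0.0264 and 0.444 ± 0.0250 CPM in the same order. The part of these markers in the level of S100B was not tested. S100P, first found in placenta, had 1, 6 and 14 counts in knockout and 66, 23 and 41 counts in parental libraries (log2 -2.07, SE 0.59, edgeR adjusted p = 0.00625). Its call was lost without parental replicate 1 (-1.60, adjusted p = 0.0583), and its log2 fold change was -3.00 without knockout replicate 3.

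The S100 genes of skin inflammation and of myeloid cells were not detected. Calprotectin is a dimer of S100A8 and S100A9. S100A8 had 0 counts in every library, and S100A9 had 1 count in 1 parental library. S100A12, S100A7A and S100A15A had 0 counts throughout, and S100A7 had 2 counts in 1 parental library. At this depth 3 counts, or up to 0.0117 CPM in a library, could have gone unseen.

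The S100 genes were also read by their position. Of the 21, 17 stand on chromosome 1, and of these 11 could be tested and all 11 rose, with log2 fold changes from 0.43 to 7.79 and a median of 3.26. The other 4 stand on chromosomes 4, 5, 21 and X, and the 2 of these that could be tested, S100P and S100B, fell. S100P entered the test through its parental counts alone and lost its call without parental replicate 1. S100B had 0 counts in 1 knockout library and also needed its parental counts to enter the test. The direction outside chromosome 1 thus rests on 2 genes that entered through the genotype in which they were higher. No difference between locations was tested. S100A14 on chromosome 1 likewise entered through its knockout counts alone. Other genes within 100 kb of an S100 gene on chromosome 1 did not all share this direction: of 9 tested, 2 rose, 6 fell and 1 did not pass, and their median was -0.43. Of all tested genes 36.3% were called higher and 37.5% lower. LORICRIN, 1 of the 6, had 0, 0 and 1 counts in knockout libraries, so it entered the test through its parental counts alone. These neighbours, chosen after the values of the S100 genes were known, include the highly expressed CHTOP, which overlaps S100A13 by 296 bases, and ILF2, both RNA-binding proteins. CHTOP held 65.4 CPM in knockout and 88.4 CPM in parental libraries on average (log2 -0.43, SE 0.048), and ILF2 held 246 and 300.4 CPM in the same order (log2 -0.29, SE 0.049). Toward the other end THEM4 rose (log2 1.68, SE 0.099) and TCHH, which encodes trichohyalin of the hair follicle, fell (log2 -2.85, SE 0.18). Within the run from S100A6 to S100A1, which spans 153534599 to 153632039, genes of very unlike change alternate, with S100A14 at 1.58 lying between S100A16 at 7.70 and S100A13 at 3.26.

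**Figure D4:**
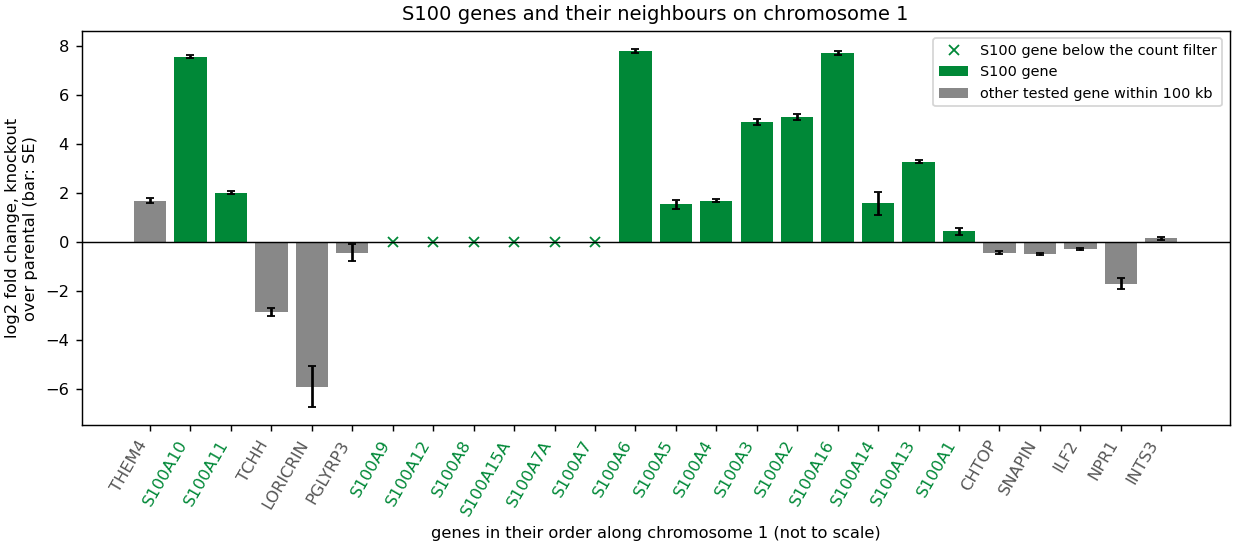
Log2 fold change, knockout over parental, with SE as a bar, of the S100 genes on chromosome 1 (green) and of the other tested genes within 100 kb of one (grey), in their order along the chromosome and not to scale. All 11 tested S100 genes lie above 0, crosses mark the 6 that were too low to test, and 7 of the 9 neighbours lie below 0, of which 6 passed the test; the value of LORICRIN rests on 1 count over the knockout libraries.

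In 3 pairs of an annexin and an S100 partner, chosen with earlier results of these data known, the partners changed in unequal measure. Per kilobase of transcript, the ratio of ANXA2 to its partner S100A10 was 19.5, 19.3 and 18.8 in knockout libraries against 452, 553 and 512 in parental libraries. The parental ratio rests on the low parental level of S100A10 described above. The ratio of ANXA1 to S100A11 was 0.449 ± 0.00786 in knockout libraries and 1.97 ± 0.120 in parental libraries, so that the annexin was the more abundant transcript in parental cells and the S100 partner in knockout cells. The ratio of ANXA11 to S100A6 was 0.106 ± 0.00358 in knockout libraries and 7.18 ± 0.0704 in parental libraries (SD, n = 3 each). The parental ratio of this pair likewise rests on the low parental level of S100A6, and its SD does not cover what sets that level. In all 3 pairs the S100 gene had the higher log2 fold change, and the ratios of knockout and parental libraries did not overlap. Other pairs were not compared in this way, and S100 genes did not always rise more than annexins. The log2 fold change of ANXA2 was 2.84, above 2.01 for S100A11 and 1.68 for S100A4. These are transcript ratios, and lengths were those of GENCODE 29 principal transcripts, so the absolute ratios depend on which isoforms are made.

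Ordered by level per kilobase, ANXA2 led in both genotypes, with 1220 ± 50.2 CPM per kilobase in knockout and 170.1 ± 2.06 in parental libraries, and ANXA5 came next with 411.98 ± 16.01 and 137 ± 4.24. In knockout libraries S100A6 at 297 ± 12.6 and S100A11 at 244 ± 7.46 CPM per kilobase followed. CPNE1 at 162 ± 3.68, ANXA6 at 157 ± 7.41 and S100A16 at 150.2 ± 3.57 CPM per kilobase came after them, and adjacent ones of these 3 differ by less than the SD of ANXA6. In parental libraries the next places were held by ANXA1 at 119 ± 5.08 and CPNE1 at 88.6 ± 2.46 CPM per kilobase, and S100A6, S100A16 and S100A10 stood at ranks 16, 18 and 19 of 22.

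**Figure D5:**
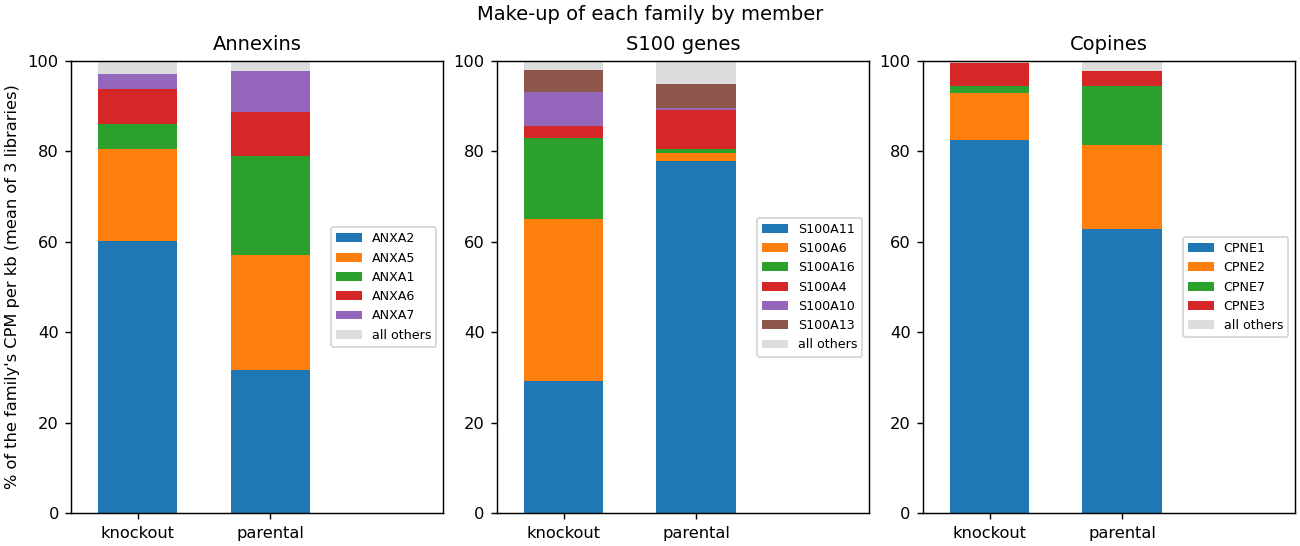
Share of each member in its family's summed CPM per kilobase of transcript, as the mean of 3 knockout (left bars) and 3 parental libraries (right bars), in percent. ANXA2 takes 60.3% of the annexins in knockout and 31.6% in parental libraries, S100A6 leads the S100 genes in knockout and S100A11 in parental libraries, and CPNE1 leads the copines in both.

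The copines moved in both directions, and their sum changed less than that of the annexins or of the S100 genes. The 9 genes together held 461 ± 10.9 CPM in knockout and 347 ± 8.78 CPM in parental libraries with TMM factors, a ratio of 1.33, but of 0.990 with total counts only, so the direction of the sum depends on the scaling. Of the 9, 3 rose, 4 fell, CPNE9 did not pass and CPNE6, a copine of hippocampal neurons, was too low to test.

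CPNE4 (ENSG00000196353.13, chromosome 3, 131533569 to 132039606), a copine known mainly from the nervous system and retina, had the largest fall of all members. It held 0.156, 0.0887 and 0.112 CPM in knockout libraries against 15.2, 15.4 and 15.5 CPM in parental libraries (log2 -7.01, SE 0.11, edgeR adjusted p = 4.04e-23). Uncharacterised lncRNAs overlap the span of CPNE4 by 69117 and 8310 bases, a limit without strand. Knockout libraries kept 0.528% of its raw parental counts, below the median of 0.617% of the 20 genes of at least 20000 parental counts that kept least, though CPNE4 itself has fewer counts than those. With S100B it was 1 of 2 members with a log2 fold change of -5 or lower, as had 2.83% of all tested genes.

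CPNE7 (ENSG00000178773.15, chromosome 16, 89575758 to 89597246), which is known for a role in tooth-forming cells, fell as well. It held 6.92, 8.21 and 8.89 CPM in knockout libraries against 51.3, 45.1 and 49.4 CPM in parental libraries, 6.07-fold more in parental libraries (log2 -2.60, SE 0.089, edgeR adjusted p = 1.09e-10). The neuronal CPNE5, at a low level, fell too, with 0.132 ± 0.00691 CPM in knockout and 0.397 ± 0.0595 CPM in parental libraries (log2 -1.59, SE 0.22). CPNE2, a widely expressed copine, fell by a smaller amount, with 53.7 ± 1.28 CPM in knockout and 69.8 ± 3.20 CPM in parental libraries (log2 -0.38, SE 0.050, edgeR adjusted p = 5.40e-07).

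CPNE8, CPNE3 and CPNE1 rose. CPNE8 (ENSG00000139117.14, chromosome 12, 38652203 to 38906835) held 3.48, 3.61 and 2.94 CPM in knockout libraries against 0.820, 0.704 and 0.622 CPM in parental libraries (log2 2.23, SE 0.13, edgeR adjusted p = 3.90e-13). CPNE3 (ENSG00000085719.13, chromosome 8, 86514435 to 86561498), which binds the receptor ERBB2 and promotes migration, held 50.7, 48.7 and 43.5 CPM in knockout libraries against 20.2, 23.5 and 23.0 CPM in parental libraries (log2 1.10, SE 0.067, edgeR adjusted p = 1.99e-10). CPNE1, the most abundant copine and a regulator of NF-kB, held 348 ± 7.90 CPM in knockout and 190.2 ± 5.27 CPM in parental libraries (log2 0.87, SE 0.047, edgeR adjusted p = 1.98e-13). CPNE1 shares 15976 bases of its span with RBM12, an RNA-binding protein gene at a mean of 96.0 CPM, so part of its reads is uncertain without strand.

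Other genes of these pathways were read from lists chosen with earlier results of these data known. Of 26 genes of membrane repair and linked calcium sensors, all tested, 17 rose, 7 fell and 2 did not pass. That is 65.4% higher and 26.9% lower, against 36.3% and 37.5% of all tested genes. The median log2 fold change of the 26 was 0.53. DYSF, the muscle membrane repair protein dysferlin, held 796 ± 39.0 CPM in knockout and 3.42 ± 0.112 CPM in parental libraries (log2 7.86, SE 0.068), and its relative MYOF, myoferlin, 455 ± 29.2 and 7.15 ± 0.118 CPM in the same order (log2 5.99, SE 0.064). Raw counts of DYSF averaged 209426 in knockout and 1319 in parental libraries, a share about as low as that of S100A6. Its SD and SE do not cover what sets this share. EHD2, an ATPase that holds caveolae at the membrane, rose by 6.10 (SE 0.065). ANO5, a membrane protein of muscle linked to repair, went lower, with 0.0978 ± 0.0150 CPM in knockout and 7.34 ± 0.254 CPM in parental libraries (log2 -6.23, SE 0.13). Raw counts of ANO5 averaged 25.7 in knockout and 2831 in parental libraries. The SD and SE of ANO5 do not cover what sets so low a share either.

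Of 14 receptors named for annexins or S100 proteins, 10 could be tested, 6 rose, 1 fell and 3 did not pass (median log2 fold change 0.57). TLR4, the endotoxin receptor that S100A8 and S100A9 engage, held 23.3 ± 1.34 CPM in knockout and 0.130 ± 0.0154 CPM in parental libraries (log2 7.48, SE 0.096). Its parental share is close to that of S100A10, so the same limit holds for it. The adhesion molecules MCAM and ALCAM rose by 3.85 (SE 0.056) and 1.60 (SE 0.053) and NPTN, neuroplastin, by 1.03 (SE 0.048). The scavenger receptor CD36, at 0.114 ± 0.0419 CPM in knockout and 0.197 ± 0.0204 CPM in parental libraries, was the 1 that fell (log2 -0.78, SE 0.28), and 0 receptors were called lower without knockout replicate 2 or parental replicate 1 or 2. AGER, which encodes the receptor RAGE, held 6.71 CPM in knockout and 7.70 CPM in parental libraries on average and did not pass (edgeR adjusted p = 0.354). FPR1, a formyl peptide receptor, did not pass either (edgeR adjusted p = 0.0554), and FPR2 and FPR3, further receptors of this family, were too low to test.

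Of 19 intracellular partners 17 could be tested, 9 rose, 7 fell and 1 did not pass (median log2 fold change 0.18). That is 52.9% higher and 41.2% lower, against 36.3% and 37.5% of all tested genes. PLAT, tissue plasminogen activator, which binds the complex of annexin A2 and S100A10, held 1141 ± 35.2 CPM in knockout and 6.27 ± 0.286 CPM in parental libraries (log2 7.51, SE 0.066). Raw counts of PLAT averaged 300294 in knockout and 2419 in parental libraries, a share close to that of S100A10, with the same limit. MYH9, the non-muscle myosin IIA heavy chain bound by S100A4, held 5463 ± 335 CPM in knockout and 786 ± 31.3 CPM in parental libraries (log2 2.80, SE 0.056), and LMNA, the nuclear lamin A, rose by 2.87 (SE 0.054). PLA2G4A, the phospholipase A2 that S100A10 binds, fell, with 5.41 ± 0.136 CPM in knockout and 36.6 ± 1.95 CPM in parental libraries (log2 -2.76, SE 0.059). Of 7 genes of the fused type, which join an S100 domain to long repeats and serve the epidermis, 3 could be tested, TCHH fell and FLG and HRNR did not pass (edgeR adjusted p = 0.0932 and 0.755). In this list 2 were called lower without knockout replicate 1, and 1 was called higher without knockout replicate 2.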

How the data were processed

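The authors deposited gene-level estimated counts for the 6 libraries in 1 table. kallisto 0.48.0 and hg38 are named in the submitters' processing notes. How transcripts were summed to genes, and with which annotation, is not given in the sources used here. Per the labels' protocols, RNA was enriched with oligo-dT beads. Strand is not stated. kallisto splits reads that match several transcripts, so near-identical copies are uncertain.

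Rounded counts entered edgeR 4.0.16 under R 4.3.3 (filterByExpr, minimum count 10 and total 15; TMM; robust quasi-likelihood fit of genotype; two-sided; p-values of all 28485 tested genes adjusted by Benjamini-Hochberg, threshold 0.05). An SE is the log2 fold change divided by the square root of F. The steps were also run on simulated data in which only a small part of the genes was changed. Most genes differ here, so that run does not check the scaling. Within a genotype no 2 libraries agreed within sampling noise (chi-square per degree of freedom 11.1 to 78.1). The floor of 3 counts covers counting error only. Levels per kilobase use the longest APPRIS principal transcript of GENCODE 29, and positions and sequences come from RefSeq GRCh38.p14.

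Members and lists were chosen with earlier results of these data known. Values per library are given for members of at least 1 CPM and an absolute log2 fold change of at least 1, and for others where a result turns on them. From each list up to 4 genes with the smallest adjusted p were named, and others, such as AGER and FPR1, were chosen after their values were seen. 2 genes of the Schwann cell and melanocyte list are not reported here. Alternatives used other scalings and filters, unrounded counts, DESeq2 1.42.0, limma-voom 3.58.1, glmTreat, a replicate block, and each library left out.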

Additional observations from a re-analysis of the deposited data

How the results depend on the processing

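Of 522 refits of the 33 tested members under the alternatives, 497 kept direction and side of the threshold. The other 25 were 19 lost calls, 8 of them with glmTreat, which tests against a log2 fold change of 1, 2 gained calls, both of CPNE9, and 4 reversals. The reversals were all of ANXA3, which was never called: -0.20 with total counts, -0.39 with limma-voom, -0.50 without knockout replicate 3 and -0.01 without parental replicate 3, with a range of -0.50 to 0.75 over the libraries left out, against 0.21 in all. Total counts moved the median of all genes by -0.42 and upper quartile factors by -0.20, and higher genes made up 33.0% and 40.5% of the calls in place of 49.1%. With these 2 scalings the ratio of summed levels was 2.61 and 3.04 for annexins, 10.1 and 11.8 for S100 genes, and 0.990 and 1.15 for copines. Annexins called lower numbered 1 in place of 2 with DESeq2 size factors, a minimum count of 50, the DESeq2 Wald test and glmTreat, and 1 to 2 with a library left out. S100 genes called lower numbered 1 with a minimum count of 50, where S100P is no longer tested, and 1 to 2 with a library left out. glmTreat called 1 copine higher, 9 repair genes higher and 3 lower, 3 receptors higher and 0 lower, 5 partners higher and 3 lower, and 5153 of all genes higher and 4412 lower. Receptors called lower numbered 3 with total counts, 2 with upper quartile factors, 0 with the DESeq2 Wald test, and 0 to 1 with a library left out. Fused-type genes numbered 0 to 1 higher and 1 to 2 lower with a library left out. Same-numbered libraries of the genotypes did not deviate together (r of -0.019, -0.020 and -0.0055), so the numbers were not taken as pairs. With a replicate block 8 annexins, 11 S100 genes and 3 copines were higher and 2, 2 and 4 lower, as without it, and 10041 of all genes were higher and 10377 lower. Depth limits ANXA3, ANXA8, S100A14 and CPNE9, none with more than 24 counts in a library. Where not stated, the cause of a change was not tested.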
